A study of Mus musculus with 2 samples.

Results

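Pax, Lhx, Dlx, Irx, Tbx, Nkx and sine oculis homeobox genes encode transcription factors of the embryo, and methylated DNA at these genes was examined in 2 livers, from 1 Pemt−/− and 1 Pemt+/+ mouse. The genes were taken by their symbols, namely every Pax, Lhx, Dlx, Irx, Tbx or sine oculis homeobox symbol ending in a number and every Nkx symbol. By this rule 31 of the 14480 genes in the 2 longer region lists were members, 25 in Pemt−/− and 29 in Pemt+/+. They were paired with 58 of 97063 regions in Pemt−/− and with 77 of 131279 regions in Pemt+/+. A RefSeq table holds 62 protein-coding genes that meet the rule, and the other 31 had no region in the lists used here.

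Both mice were fed high fat-high sucrose (HFHS) chow. The series record gives the diet from 5 weeks and the liver at 25 weeks of age, while the Methods describe shorter feeding ahead of the enrichment. Pemt encodes the enzyme that methylates phosphatidylethanolamine to phosphatidylcholine, and Pemt−/− mice lack it. Methylated liver DNA was captured with a kit, 1 library was sequenced per genotype, and methylated stretches appear as regions in which reads (tags) pile up. The record also speaks of bisulphite conversion, which the Methods leave out. The labels name 1 animal per library, while the Methods speak of several mice per genotype, so whether DNA was pooled is not settled. With 1 library per genotype there are no replicates and no test between genotypes, and every difference below is between 2 libraries. The DNA came from whole liver, so the number of methylated cells and the methylation within each cell cannot be told apart. Region lists hold no RNA, so the tissue and the genotype were not checked against marker genes.

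Pax, Lhx, Dlx, Irx, Nkx and sine oculis proteins bind DNA through a homeodomain or a paired domain, and Tbx proteins through a T-box. They set the identity of organs and cell types in the embryo, and most are silent in adult hepatocytes. The start sites of such genes often lie in long CpG-rich stretches, which in most tissues stay free of DNA methylation and are held silent by Polycomb proteins. In tumours such start sites often gain DNA methylation.

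Promoters are shown first. No region overlapped the 5′ end of any of these genes. This says little of the members, since over all regions paired with a gene the share was 0.522% in Pemt−/− and 0.567% in Pemt+/+. A RefSeq promoter table of the build GRCm38.p6 held 24 of the 31 members, and Dlx3, Dlx5, Irx1, Irx6, Lhx5, Tbx3 and Tbx15 had no entry. The 250 bases ahead of the start held a median of 13 CpG in these 24 genes, with 3 to 33 CpG. In the first promoter of all 27025 genes of the table the median was 6. At least 10 CpG were present in 15 of the 24 members (62.5%) and in 38.2% of all promoters. For members too, only the first start in the table was counted. Pax2 has 3 starts, with 5, 20 and 25 CpG, and was counted by the one with 5. The motif searched was the dinucleotide CG, which reads the same on both strands, and 91.7% of all promoters of this length held it at least once. Among the 20 genes of these families in the table but without a region, the median was 15.5 CpG. The regions lie on the build mm9, so the promoters are given for their sequence and were not laid over the regions. Below, CG dinucleotides are in capitals. The first 4 were chosen as CpG-rich promoters, of the gene with the most regions (Pax5), the member with the most CpG (Nkx2-4), and Dlx1 and Lhx1, whose regions came no closer to the 5′ end than 7382 and 5795 bp.
Dlx1 (chr2:71529195-71529444, plus strand, 22 CpG): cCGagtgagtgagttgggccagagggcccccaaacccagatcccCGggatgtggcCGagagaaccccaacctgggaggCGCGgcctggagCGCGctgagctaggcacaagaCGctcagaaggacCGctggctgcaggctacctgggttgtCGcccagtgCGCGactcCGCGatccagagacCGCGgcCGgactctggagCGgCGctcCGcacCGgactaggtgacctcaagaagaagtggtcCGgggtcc
Lhx1 (chr11:84525535-84525784, minus strand, 26 CpG): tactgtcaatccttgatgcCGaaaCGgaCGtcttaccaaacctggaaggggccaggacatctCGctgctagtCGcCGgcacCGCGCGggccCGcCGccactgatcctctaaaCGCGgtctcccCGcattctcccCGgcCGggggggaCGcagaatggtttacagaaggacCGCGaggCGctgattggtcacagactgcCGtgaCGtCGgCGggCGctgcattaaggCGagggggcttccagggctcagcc
Nkx2-4 (chr2:147085346-147085595, minus strand, 33 CpG): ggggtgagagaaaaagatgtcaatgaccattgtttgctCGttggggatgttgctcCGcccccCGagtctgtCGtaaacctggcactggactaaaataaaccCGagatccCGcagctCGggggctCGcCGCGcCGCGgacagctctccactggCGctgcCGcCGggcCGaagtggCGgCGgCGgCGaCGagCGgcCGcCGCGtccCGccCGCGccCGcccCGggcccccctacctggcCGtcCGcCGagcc
Pax5 (chr4:44710695-44710944, minus strand, 19 CpG): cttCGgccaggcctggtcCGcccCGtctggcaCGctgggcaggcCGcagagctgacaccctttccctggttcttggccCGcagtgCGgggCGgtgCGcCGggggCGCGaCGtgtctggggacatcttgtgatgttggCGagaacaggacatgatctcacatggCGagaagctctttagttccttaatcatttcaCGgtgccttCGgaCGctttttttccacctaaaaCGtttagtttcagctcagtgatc

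The next 3 have fewer CpG than the members' median. Lhx8 and Tbx19 are shown because they carried the regions with the most tags, and Tbx10 because its promoter had the fewest CpG of the members in the table.
Lhx8 (chr3:154330561-154330810, minus strand, 4 CpG): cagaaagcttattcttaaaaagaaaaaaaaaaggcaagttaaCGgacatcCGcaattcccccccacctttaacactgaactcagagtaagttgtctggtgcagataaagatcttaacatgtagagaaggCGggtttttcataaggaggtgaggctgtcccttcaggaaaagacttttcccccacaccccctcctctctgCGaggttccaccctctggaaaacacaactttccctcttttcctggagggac
Tbx10 (chr19:3992502-3992751, plus strand, 3 CpG): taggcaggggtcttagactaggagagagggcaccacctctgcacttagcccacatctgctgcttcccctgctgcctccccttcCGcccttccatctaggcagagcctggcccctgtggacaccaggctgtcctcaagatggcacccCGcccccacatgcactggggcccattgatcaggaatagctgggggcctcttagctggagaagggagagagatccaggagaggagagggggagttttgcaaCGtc
Tbx19 (chr1:165160774-165161023, minus strand, 7 CpG): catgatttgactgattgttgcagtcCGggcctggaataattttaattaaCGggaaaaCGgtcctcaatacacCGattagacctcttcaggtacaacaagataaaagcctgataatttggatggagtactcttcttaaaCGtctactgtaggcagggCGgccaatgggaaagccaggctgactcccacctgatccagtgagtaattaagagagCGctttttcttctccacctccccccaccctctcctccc

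No region overlapped the 5′ end of a member transcript in either mouse. This was 0 of 58 regions in Pemt−/−, which allows a share of up to 5.17%, and 0 of 77 in Pemt+/+, which allows up to 3.90%. Over all regions paired with a gene the share was 0.522% in Pemt−/− and 0.567% in Pemt+/+, so a lack at the members was not detectable with so few regions. Lists of 25 cofactor genes and of 28 related homeobox and T-box genes, described at the end, also had 0 regions over a 5′ end.

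Regions inside transcripts made up 29 of 58 in Pemt−/−, or 50% (95% Wilson interval 37.5 to 62.5%), against 80.0% of all regions paired with a gene. In Pemt+/+ they were 41 of 77, or 53.2% (42.2 to 64.0%), against 79.8%. Flanks within 10 kb held most of the rest. Upstream regions were 12 in Pemt−/− (20.7%, 12.3 to 32.8%) and 16 in Pemt+/+ (20.8%, 13.2 to 31.1%), against 9.93% and 10.1% of all. Downstream regions were 16 (27.6%, 17.8 to 40.2%) and 18 (23.4%, 15.3 to 34.0%), against 8.26% and 8.35%. Several downstream regions also lie at a neighbouring gene. Member regions were classed by member transcripts only, and regions over all genes by every transcript they met. A region in a member's flank but inside a neighbour thus counts as flank at the members and as inside over all genes. Without regions paired with a gene outside the members, downstream regions were 17.8% (9.29 to 31.3%) in Pemt−/− and 15.6% (8.71 to 26.4%) in Pemt+/+, and inside regions 62.2% (47.6 to 74.9%) and 62.5% (50.3 to 73.3%). Among regions paired with a single gene, over all genes, 8.5% and 8.61% were downstream and 81.4% and 81.1% inside. A 3′ end was overlapped at Pax5 in Pemt−/− and at Lhx1 and Lhx8 in Pemt+/+. In 15 of the 31 members every region was in a flank, among them Dlx1, Dlx3, Dlx5, Irx1, Irx6, Lhx3, Lhx5 and Nkx2-4. The intervals cover counting error only, and treat regions as independent although several lie at 1 gene.

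**Figure D1:**
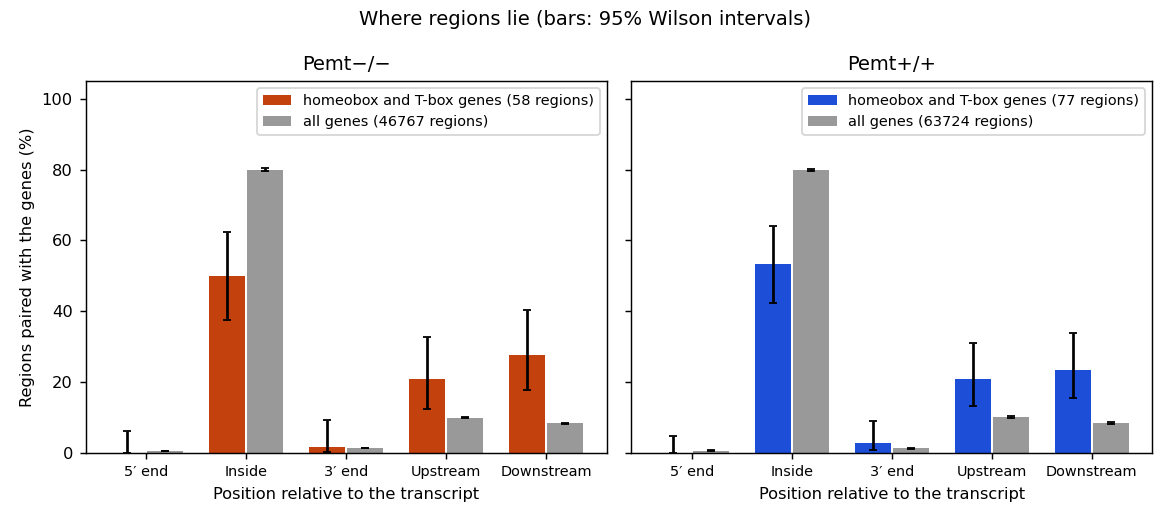
Share of regions (%, with 95% Wilson intervals) by position relative to the transcript, for the homeobox and T-box genes (coloured) and for all genes (grey), in Pemt−/− on the left and Pemt+/+ on the right. Inside regions are 50% and 53.2% at the homeobox and T-box genes against 80.0% and 79.8% at all genes, and no region of these genes lies over a 5′ end. The coloured bars use the transcripts of these genes only, and the grey bars use every transcript a region met.

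Genes of these families also differed from all genes in length. The median gene of the 62 in these families spanned 8.69 kb, and the median of all 21631 protein-coding genes in the RefSeq table spanned 17.3 kb. Per 100 kb of gene, Pemt−/− had 2.07 inside regions at these families and 3.19 at all genes, and Pemt+/+ had 2.93 and 4.34. Per 100 kb of flank, counting 10 kb on each side, Pemt−/− had 2.26 regions against 2.82, and Pemt+/+ had 2.74 against 3.94. Per length, the values for bodies and flanks of these families were both lower than those of all genes. They rest on 29 inside and 28 flank regions in Pemt−/− and on 41 and 34 in Pemt+/+. No interval was set on them, so whether the gaps exceed counting error was not tested. A region in the body or flanks was listed for 40.3% of the 62 genes in Pemt−/− and 46.8% in Pemt+/+, against 51.5% and 55.5% of all protein-coding genes. The part of gene length in the shares above was not tested.

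Distances of the upstream regions follow. In Pemt−/− the 12 upstream regions were 2142 to 9502 bp from the 5′ end with a median of 7016.5 bp, against 4971.5 bp over all genes. In Pemt+/+ the 16 were 660 to 9928 bp away with a median of 6677 bp, against 5013 bp. Within 2 kb were 0 of 12 in Pemt−/−, which allows a share of up to 25%, and 2 of 16 in Pemt+/+ (Dlx3 and Tbx19), or 12.5% (3.5 to 36%). Over all genes these shares were 19.0% and 19.2%, so a difference within 2 kb was not detectable at these numbers. Downstream, the medians were 6178.5 bp in Pemt−/− and 6508 bp in Pemt+/+, against 4926 and 4899 bp. For 14 members the position of the 5′ end could be worked out from the distances in the lists, which requires an upstream region. Among these 14 genes only Pax5, Pax7, Six4 and Tbx19, and Lhx8 in Pemt+/+, had regions inside a transcript. The nearest of these regions was 5978 bp from the 5′ end in Pemt−/− and 5951 bp in Pemt+/+, both at Tbx19. Some of the 14 transcripts are short, with 5680 bp at Irx6 and 6157 bp at Lhx1. No value over all genes was set beside these distances.

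**Figure D2:**
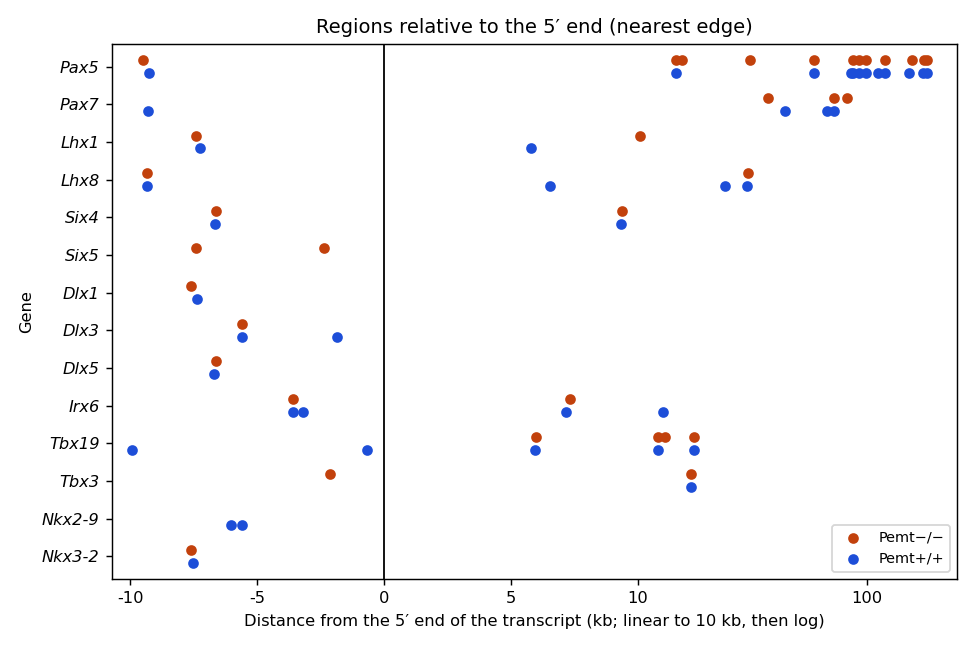
Distance (kb, linear to 10 kb and log beyond) of the nearer edge of each region from the 5′ end of the transcript, for the 14 genes whose 5′ end could be placed, with negative values upstream, in Pemt−/− (orange) and Pemt+/+ (blue). The single point within 1 kb of a 5′ end is the Pemt+/+ region at Tbx19, 660 bp upstream.

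Regions of these genes were thinly covered. In Pemt−/− they held 8 to 44 tags with a median of 11.5, against a median of 13 over all regions paired with a gene. In Pemt+/+ they held 9 to 81 tags with a median of 14, against 17. The totals at the members were 759 tags in Pemt−/− and 1296 in Pemt+/+. The whole lists held 1582080 and 2847831 tags, which depend on how much was called, and library totals were not used here. Fold enrichment over the background had a median of 17.6 at the members in Pemt−/− and 16.1 in Pemt+/+.

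**Figure D3:**
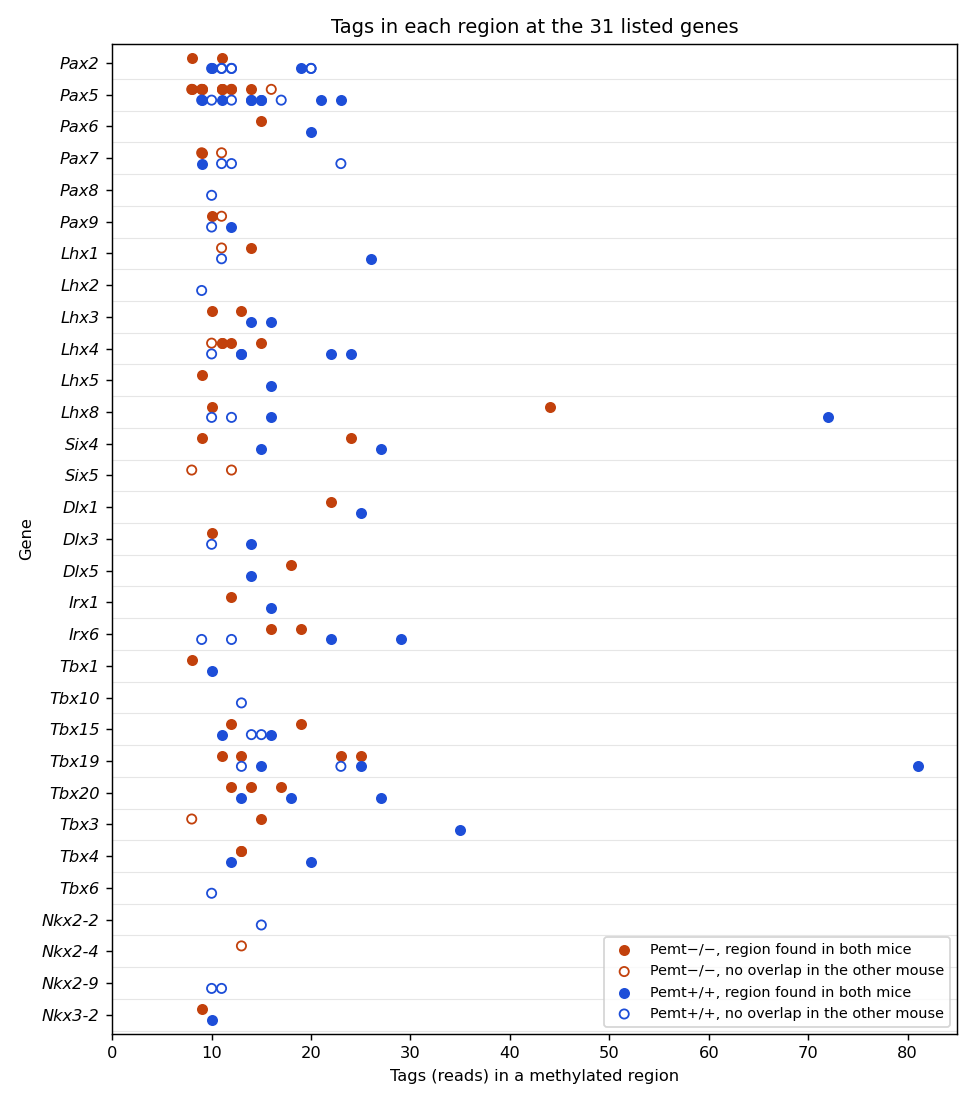
Tags in each methylated region of the 31 listed genes (rows, by family), in Pemt−/− (orange) and Pemt+/+ (blue), filled where the region overlapped a region of the other mouse and open where it did not. Most points lie under 30 tags, with the exceptions of Lhx8 (44 and 72 tags), Tbx19 (81 tags) and Tbx3 (35 tags).

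A region of the other mouse, overlapping by at least 1 bp, was found for 45 of the 58 Pemt−/− regions, or 77.6% (65.3 to 86.4%). The remaining 13 were 22.4%, beside a background of 16.7% of all Pemt−/− regions. In Pemt+/+ 44 of 77 were found, or 57.1% (46.0 to 67.6%), and the remaining 33 were 42.9%, beside a background of 38.4%. Both backgrounds lie within the intervals around the members' shares. Regions found only in Pemt+/+ had a median of 11 tags against 16 in the shared ones. In Pemt−/− the medians were 11 and 12. By gene, 23 members were listed in both mice. Six5 and Nkx2-4 were listed in Pemt−/− only, 2 of 31 beside a background of 2.31% of all genes. Lhx2, Nkx2-2, Nkx2-9, Pax8, Tbx6 and Tbx10 were listed in Pemt+/+ only, 6 of 31 beside a background of 9.73%. None of these 8 genes had a region of more than 15 tags.

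Pax genes carried the most regions, 20 at 5 genes in Pemt−/− and 29 at 6 genes in Pemt+/+, and 15 and 22 of them were inside transcripts. Pax1, Pax3 and Pax4 had none. Pax5, which keeps B cells committed to their lineage, had 12 regions in each mouse, more than any other member. Their tags summed to 130 in Pemt−/− and 170 in Pemt+/+. The 8 regions that paired held 85 tags in Pemt−/− and 122 in Pemt+/+, so that 41.1% (34.6 to 47.9%) came from Pemt−/−. The rest did not overlap, 4 regions with 45 tags in Pemt−/− and 4 with 48 in Pemt+/+. The Pax5 transcript NM_008782.2, on chromosome 4 (mm9, minus strand), spans 44544377 to 44723312 as worked out from the lists, and the nearest region inside it lay 14638 bp from the 5′ end in Pemt−/− and 14731 bp in Pemt+/+. Upstream of Pax5, a region from 44732814 to 44733133 held 9 tags in Pemt−/−, and its counterpart held 21 tags in Pemt+/+.

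Pax2, needed for kidney, eye and midbrain, had the lowest share of tags from Pemt−/− among the 21 members with at least 20 tags and a region in both mice. In Pemt−/− it had 2 regions inside the transcript with 8 and 11 tags. Pemt+/+ had 9, of which 8 lay inside, with 10 to 20 tags. In the pairs the tags were 8 against 10 from 44868041 to 44868352 on chromosome 19, and 11 against 19 from 44891821 to 44892299. The other 7 Pemt+/+ regions, with 96 tags, overlapped none in Pemt−/−. The strongest of these were from 44902570 to 44903121, with 20 tags, a fold enrichment of 25.1 and the nearest Pemt−/− region 10271 bp away, and from 44890326 to 44890740, with 20 tags, a fold enrichment of 14.9 and a Pemt−/− region at 1081 bp. For comparison, 27.3% of all Pemt+/+ regions holding 20 tags had no counterpart in Pemt−/−, and 72.1% of those holding 10. Tags of all Pax2 regions summed to 19 in Pemt−/− and 125 in Pemt+/+, a share from Pemt−/− of 13.2% (8.61 to 19.7%). Only 0.611% of 12608 genes with at least 20 tags and a region in both mice had a lower share. The median of these genes was 36.1%. Genes listed in 1 mouse only were left out of this ranking, and 9.73% of all genes were listed in Pemt+/+ only. Unlisted regions enter such sums as 0 tags although reads may lie there. Within the 2 pairs the share was 39.6% (27.0 to 53.7%), beside 39.9% for all paired regions. Pax2 was picked out here after its values were seen.

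**Figure D4:**
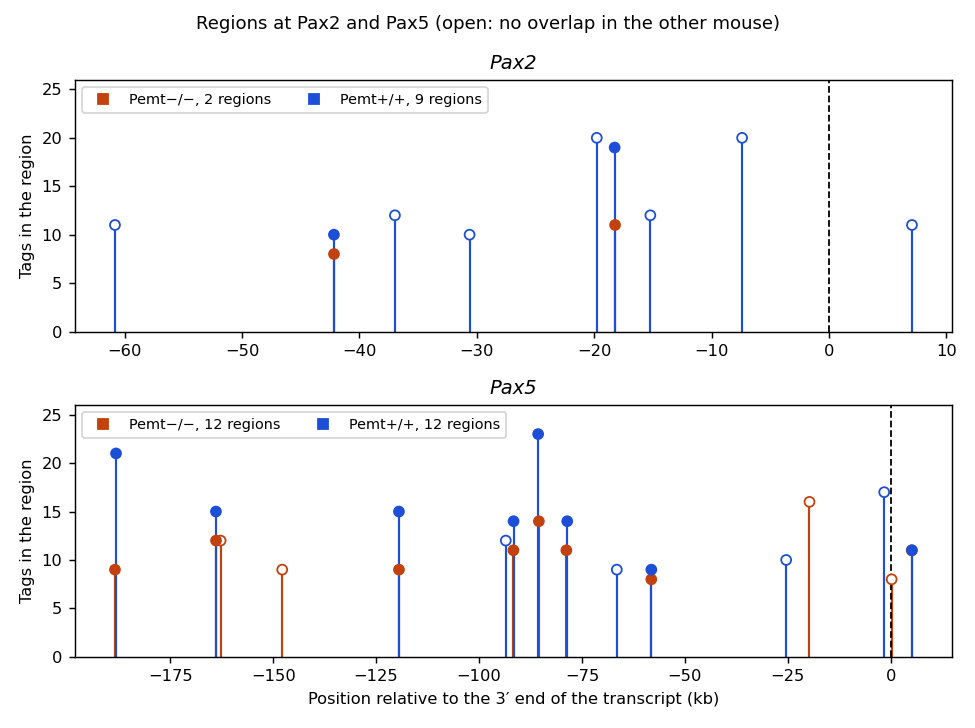
Tags in each region at Pax2 (above) and Pax5 (below) against position relative to the 3′ end of the transcript (kb, dashed line at the 3′ end), in Pemt−/− (orange) and Pemt+/+ (blue), with open symbols for regions without an overlap in the other mouse. At Pax2, 7 of the 9 Pemt+/+ regions are open and both Pemt−/− regions are filled, while at Pax5 each mouse has 4 open regions of 12.

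Pax7, a marker of muscle stem cells, had 3 regions with 9, 9 and 11 tags in Pemt−/− and 4 with 9, 11, 12 and 23 tags in Pemt+/+. Only the pair with 9 tags in each mouse was shared. The region with 23 tags, from 139398189 to 139398665 on chromosome 4, was 9306 bp upstream and found in Pemt+/+ only. Pax9, which acts in teeth and the thymus, had a region inside the transcript in Pemt−/− only, with 11 tags, and a downstream pair with 10 and 12 tags. Pax6, of the eye and endocrine pancreas, had a single pair 2378 bp downstream in Pemt−/−, with 15 tags against 20 in Pemt+/+, which also lies at Elp4. Pax8, of the thyroid and kidney, had 1 region of 10 tags in Pemt+/+ only.

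Lhx genes encode LIM-homeodomain factors. Pemt−/− had 12 regions at 5 of them, 9 in flanks, and Pemt+/+ had 15 at 6 of them, 8 in flanks. Lhx6 and Lhx9 had none. Lhx8, which acts in forebrain cholinergic neurons and oocytes, had the best covered flank region of all members. It lay on chromosome 3 from 154002874 to 154003623, 9350 bp upstream, and held 44 tags in Pemt−/− and 72 in its Pemt+/+ counterpart. Its ratio of Pemt−/− to Pemt+/+ tags was 0.611, below the median of 0.682 over all 79393 paired regions. A downstream pair at Lhx8 held 10 and 16 tags, and Pemt+/+ had 2 more regions, with 10 tags inside and 12 tags over the 3′ end. Lhx4, a pituitary factor, had 5 regions in each mouse with 10 to 15 tags in Pemt−/− and 10 to 24 in Pemt+/+. In 4 pairs it held 49 and 72 tags. The 2 pairs inside Lhx4 had 11 tags against 13 each, and the 2 downstream pairs had 12 against 22 and 15 against 24. Those downstream regions also lie at Acbd6.

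Lhx1, of the head and kidney, had an upstream pair with 14 tags in Pemt−/− and 26 in Pemt+/+, 7421 bp from the 5′ end in Pemt−/−. It also had an unshared region of 11 tags in each mouse, downstream in Pemt−/− and over the 3′ end in Pemt+/+. These unshared regions were 3816 bp apart. Lhx3, which works beside Lhx4 in the pituitary, had 2 downstream pairs, with 13 against 14 tags and 10 against 16. Lhx5 had a single downstream pair of 9 against 16 tags. Lhx2, which keeps hepatic stellate cells quiescent, had 1 region inside the transcript, with 9 tags, in Pemt+/+ only. Regions of 9 tags were without a counterpart in 75.9% of cases over the whole Pemt+/+ list.

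At Tbx genes 10 of 14 Pemt−/− regions and 12 of 18 Pemt+/+ regions were inside transcripts. Tbx2, Tbx5, Tbx18, Tbx21 and Tbx22 had none. Tbx19, the factor of corticotroph cells in the pituitary, had a sum of 72 tags in Pemt−/− and 157 in Pemt+/+. The largest Pemt+/+ region of any member, with 81 tags, lay inside it on chromosome 1 from 167077134 to 167078636, and overlapped 2 Pemt−/− regions with 25 and 23 tags. Because it met 2 regions it is not among the pairs. The pairs inside Tbx19 had 11 tags against 25 and 13 against 15. Tbx19 also had the region closest to a 5′ end among the 14 members in which the 5′ end could be placed. It lay 660 bp upstream from 167091564 to 167091899, held 23 tags in Pemt+/+, and overlapped none in Pemt−/−, where the nearest region was 6638 bp away. Regions of 23 tags were without a counterpart in 20.6% of cases over the whole Pemt+/+ list.

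Tbx15, of skeleton and skin, had the pair with the highest ratio of all members. From 99081067 to 99081353 on chromosome 3 it held 19 tags in Pemt−/− against 11 in Pemt+/+, a ratio of 1.73, and 99.6% of all paired regions had a lower ratio. The share from Pemt−/− was 63.3% (45.5 to 78.1%), above the 39.9% of all pairs, though this pair was named as the highest of 43. A second Tbx15 pair held 12 tags against 16, and Pemt+/+ had 2 more regions of 14 and 15 tags. Summed over its 2 pairs, Tbx15 held 31 tags against 27, a share of 53.4% (40.8 to 65.7%), and over all its regions 31 against 56, a share of 35.6%. The excess in Pemt−/− thus lay in a single region.

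Tbx3, which acts in limb, heart and the embryonic liver, had a pair with the lowest ratio of the members, equal to that of the upstream pair at Pax5. Its downstream region, on chromosome 5 from 120137688 to 120138238, held 15 tags in Pemt−/− and 35 in Pemt+/+, a ratio of 0.429. Only 7.83% of all paired regions had a lower ratio, and the share from Pemt−/− was 30% (19.1 to 43.8%), which includes the 39.9% of all pairs. Pemt−/− also had an upstream Tbx3 region of 8 tags, 2142 bp from the 5′ end. Tbx20, a heart factor, had 3 pairs and no other region, with 17 against 27 tags downstream, and 14 against 18 and 12 against 13 inside. Tbx4, of hindlimb and lung, had 2 pairs inside with 13 against 20 and 13 against 12 tags. Tbx1, of the pharyngeal arches, had a downstream pair with 8 and 10 tags. Tbx6 and Tbx10 had 1 region each in Pemt+/+ only, with 10 tags 759 bp downstream and 13 tags inside. Both also lie near other genes, among them Aldoa and Ppp4c at Tbx6 and Ndufv1 at Tbx10.

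Dlx, Irx and Nkx genes, Six4 and Six5 had few regions, 12 in Pemt−/− and 15 in Pemt+/+, and 11 and 13 of these were in flanks. Dlx1, Dlx3 and Dlx5, of forebrain, skin and craniofacial bone, each had an upstream pair. The tags were 22 in Pemt−/− against 25 in Pemt+/+ at Dlx1, 10 against 14 at Dlx3, and 18 against 14 at Dlx5. The Dlx5 ratio of 1.29 was the second highest among the members' pairs, and its share of 56.2% (39.3 to 71.8%) includes the 39.9% of all pairs. A further Dlx3 region of 10 tags, 1863 bp upstream, was found in Pemt+/+ only. In the linked pairs of Dlx genes, Dlx2, Dlx4 and Dlx6 had no region.

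Irx1 and Irx6, Iroquois factors of heart and nervous system, were the only listed members of the 2 Irx clusters, and Irx2, Irx3, Irx4 and Irx5 had none. The Irx1 region, about 6 kb downstream, held 12 tags in Pemt−/− and 16 in Pemt+/+. Irx6 had an upstream pair with 19 against 29 tags and a downstream pair with 16 against 22. Pemt+/+ had 2 further Irx6 regions of 12 and 9 tags, and that of 12 tags was 93 bp from the Pemt−/− region of 19 tags.

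Six4, a muscle factor, had 2 pairs and nothing else. Inside the transcript there were 24 tags in Pemt−/− against 27 in Pemt+/+, and upstream 9 against 15. Six5 had 2 upstream regions of 8 and 12 tags in Pemt−/− only, 7392 and 2375 bp from the 5′ end, and both also lie at its neighbour Dmpk. The nearest Pemt+/+ region, of 13 tags, was 5156 bp from that of 8 tags and 9988 bp from that of 12 tags. Over the whole Pemt−/− list, regions of 12 tags lacked a counterpart in 17.7% of cases and regions of 8 tags in 43.1%.

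Of the 14 Nkx genes 4 were listed. Nkx3-2, of the axial skeleton and spleen, had the only pair, upstream, with 9 tags in Pemt−/− and 10 in Pemt+/+. Nkx2-9 had 2 neighbouring upstream regions of 10 and 11 tags in Pemt+/+ only. Nkx2-4 had a downstream region of 13 tags in Pemt−/− only, shared with Xrn2. Nkx2-2, of the ventral neural tube and endocrine pancreas, had a region of 15 tags in Pemt+/+ only, which was inside the transcript NM_001077632.1 and downstream of NM_010919.2.

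Over the 43 pairs of overlapping regions at the members, the tags summed to 573 in Pemt−/− and 798 in Pemt+/+. Pemt−/− thus gave 41.8% (39.2 to 44.4%) of them, beside 39.9% over all pairs, which the interval includes. The median ratio was 0.750 at the members, with an interval of 0.630 to 0.833, and 0.682 over all pairs. Pemt−/− held more tags in 3 of the 43 pairs, at Tbx15, Dlx5 and Tbx4. These were also the pairs at least 1.5 times above the median ratio of all pairs, beside a background of 10.4%. At least 1.5 times below it were 3 pairs, at Tbx3, Pax5 and Tbx19, beside a background of 11.2%. Neither count exceeds its background.

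Pairs inside transcripts and in flanks had different medians. The 20 inside pairs had a median ratio of 0.800 and the 23 flank pairs 0.655, with shares from Pemt−/− of 44.2% (40.1 to 48.3%) and 40.2% (36.9 to 43.6%), intervals that overlap. Over all genes the medians were 0.690 inside and 0.684 in flanks, and the shares 40.1% and 39.8%. The interval of the members' inside median, 0.750 to 0.889, lies above the median of all inside pairs. It treats the pairs as independent although several lie at 1 gene, as at Pax5, and each genotype has 1 library. It is therefore no measure of a difference between genotypes at these genes. The lower bound of their share, 40.1%, is equal to the share of all inside pairs to 3 digits. Of the 20 inside pairs 15 had at most 30 tags in both mice together, and in these the median was 0.846 (0.786 to 0.923), beside 0.786 in such pairs inside all genes. In the other 5 it was 0.65, beside 0.643. The ratio also moved with tag number. In pairs with at most 30 tags in both mice together it was 0.800 at the members (27 pairs) and 0.769 over all. In pairs with more it was 0.640 at the members (16 pairs) and 0.633 over all. Set beside pairs in the same range of tags, the members' medians were close to those of all pairs. No test was made.

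**Figure D5:**
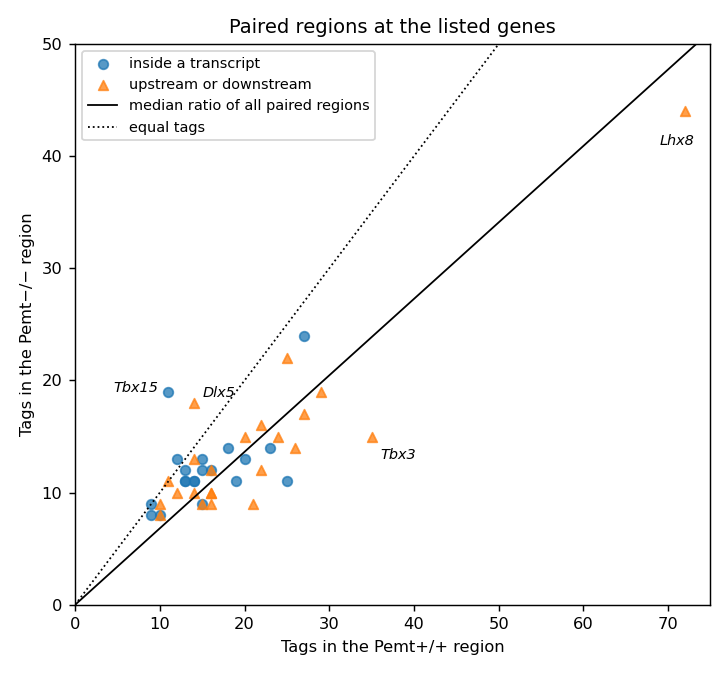
Tags in the Pemt−/− region against tags in the overlapping Pemt+/+ region for the 43 pairs at the listed genes, inside a transcript (circles) or upstream or downstream (triangles), with the median ratio of all paired regions (0.682, solid line) and equal tags (dotted line). Of the labelled pairs, Tbx15 and Dlx5 lie above the dotted line and Tbx3 and Lhx8 lie below the solid line.

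Each mouse also has a shorter list, whose making the records leave out and in which regions enriched over the other mouse may be meant. These lists held 3 regions of the members. In Pemt−/− they were 2 of the 58 regions, beside a background of 2.13%, and in Pemt+/+ 1 of 77, beside 4.59%. By gene, 2 of 25 members were there in Pemt−/−, beside 9.06% of all genes, and 1 of 29 in Pemt+/+, beside 19.2%. The Pax9 region lay inside the transcript on chromosome 12 from 57809763 to 57810166 with 11 tags, and the Pax5 region inside the transcript from 44564127 to 44564633 with 16 tags. Both had a false discovery rate (FDR) of 100%, which was also the median of the shorter Pemt−/− list. Of that list 81.8% and 89.9% scored higher. The nearest Pemt+/+ regions held 10 tags each and were 9358 bp and 5161 bp away. The Nkx2-2 region, on chromosome 2 from 147006420 to 147006977 with 15 tags, had an FDR of 32.8%, and 56.8% of the shorter Pemt+/+ list had a higher score. The median FDR of the shorter Pemt+/+ list was 32.6%. None of the Pax2 regions was in a shorter list.

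Related genes were looked at by counts. Of 28 homeobox and T-box genes outside the rule, 14 were listed in each mouse, with 40 regions in Pemt−/− and 41 in Pemt+/+. Prox1 and Lmx1a had 8 regions each in each mouse, and Onecut1 and Mga had 4 each. The Pitx and En genes and Eomes, also in this list, had no region in either mouse. Inside transcripts were 50% and 46.3% of the 40 and 41 regions, beside 50% and 53.2% for the members. In the other mouse 75.0% and 73.2% were found. Of 25 cofactor genes (Eya and Dach, which work with sine oculis factors, Ldb and Lmo with Lhx, the Groucho genes Tle, and Pbx and Meis), 21 were listed in Pemt−/− and 22 in Pemt+/+. These had 133 and 188 regions, of which 92.5% and 92.0% were inside transcripts, and 87.2% and 61.7% were found in the other mouse. The shorter Pemt−/− list held 1 cofactor region, at Eya3, and 2 of the related genes, at Emx1 and Gbx2, while the shorter Pemt+/+ list held 9 cofactor regions and 0 of the related genes. Set against their regions in the longer lists, these were 0.752% of 133, 5% of 40, 4.79% of 188 and 0% of 41, beside the backgrounds of 2.13% in Pemt−/− and 4.59% in Pemt+/+. With so few regions nothing is read from these counts.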

How the data were processed

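Liver DNA in 1 Pemt−/− and 1 Pemt+/+ library (1 mouse each by the labels) was enriched for methylated DNA and sequenced by the authors on a Genome Analyzer IIx. The submitters' processing notes name CASAVA 1.8.2, Bowtie and the build mm9. Region names are those of the peak caller MACS, and its version, settings, control and handling of duplicates are not given in the sources used here. The deposited tag numbers are whole read counts per region, not normalised. The deposited fold enrichment is a ratio of reads over the background. The deposited score is 10 times the −log10 p-value and was at least 50. The deposited FDR is a percent.

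Each list pairs regions with RefSeq transcripts up to 10 kb away. A region was used once. Where it met several transcripts, it took the first class in the order 5′ end (or whole transcript), 3′ end, inside, upstream, downstream. For the members only member transcripts entered this choice, and for all genes every transcript did. Overlaps were found with bedtools 2.31.1 (at least 1 bp), and pairs are regions that overlap one to one. Python 3.11.15, pandas 2.3.3, numpy 2.4.6, scipy 1.17.1 and matplotlib 3.10.9 were used. Shares have Wilson 95% intervals, medians of ratios a binomial interval, and 0 counts a limit of 3 counts. They cover counting error only. The code for overlaps and tag ratios was run on Pemt+/+ regions thinned and shifted at random, with tags redrawn at a set ratio. The redrawn tags lacked the lower limits of the deposited lists. This run checks the code only and says nothing of the ratios between the mice. Gene lengths and promoters come from RefSeq tables of GRCm38.p6, and all 31 members matched a symbol in the gene table and 24 in the promoter table.

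The members and lists were chosen with earlier results of these data known. The rule for named genes took the 12 members with most tags, the 6 highest and 6 lowest shares among 14 members with at least 40 tags in pairs, those in shorter lists, and those without a region inside or over an end. The other members are named too, so that each is accounted for. Alternatives were the upper 50% of each list by score, equal list sizes, autosomes, symbols without antisense, an overlap of 50% of both regions, regions inside or overlapping transcripts only, regions paired with no other gene, up to 1 kb upstream of a 5′ end, and class by the smallest distance.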

Additional observations from a re-analysis of the deposited data

How the results depend on the processing

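No paired analysis was possible because there is only 1 library of each genotype. Of 155 values under alternatives, 137 stayed within their interval or within 1.5 times, and 18 did not. The 137 include every value for autosomes only and without antisense symbols, which could not move, so 137 of 155 overstates the stability. The 18 moved values follow, and the cause was not tested, except that shorter lists must hold fewer regions.

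With only the better-scoring 50% of a list, there remained 21 member regions in Pemt−/− and 37 in Pemt+/+. Of the Pemt+/+ regions 37.8% were then found in the other mouse, 0% in either mouse were over a 3′ end, the shorter lists held 0 in each, and the share of tags from Pemt−/− was 38.4% in pairs and 30.4% over all regions. With lists of equal size, 62.1% of the Pemt−/− and 70.0% of the 50 remaining Pemt+/+ regions had an overlap, the share of tags over all regions was 43.0%, and the shorter Pemt+/+ list held 0. Only regions inside or overlapping a transcript were 30 in Pemt−/− and 43 in Pemt+/+. Without regions shared with other genes, the shorter Pemt−/− list held 1 region, since the Pax9 region also lies at Slc25a21. With upstream regions within 1 kb of a 5′ end counted as well, 1 member (Tbx19) had such a region in Pemt+/+, and regions inside a transcript were not part of this count. Autosomes only and the removal of antisense symbols left every value as it was, since no member lies on a sex chromosome or has such a symbol.

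Leaving out Pax2 and splitting pairs by tag number were chosen after seeing the data. Without Pax2, 61.8% of the remaining 68 member regions of Pemt+/+ were found in the other mouse, against 57.1% with it. The few tags per region limit what can be said of any single gene.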
